A study of Mus musculus with 5 samples.

Results

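Cathepsins are the main proteases of the lysosome. The 9 cathepsin genes Ctsa, Ctsb, Ctsc, Ctsd, Ctsf, Ctsh, Ctsl, Ctss and Ctsz were taken by symbol from a table of 41388 genes in brain microglia, and each matched 1 row. RNA was sequenced from microglia of C57Bl/6 mice aged 4 weeks that had received 2 mg tamoxifen on postnatal days 14 and 16, and the cells were sorted for the yellow fluorescent reporter eYFP. The control group (2 libraries) has the genotype eYFP-A20fl/wt Cx3cr1-CreERT2/+, with 1 floxed and 1 intact A20 allele, and is described as partially deficient. The A20 deletion group (3 libraries) has the genotype given as eYFP-A20Dmg and is described as fully deficient, with no Cre spelled out. Both groups received tamoxifen, so the controls are not untreated wild-type cells. Cre is driven from Cx3cr1, a gene that circulating monocytes use as well. The gene for A20, Tnfaip3, makes a brake on NF-kB signalling that acts through ubiquitin, and the comparison asks how its loss changes the microglial transcriptome.

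Cathepsins are made as inactive precursors, carried to the lysosome largely by mannose 6-phosphate receptors, and matured there by cleavage at acid pH. Most belong to the papain-like cysteine proteases (Ctsb, Ctsc, Ctsf, Ctsh, Ctsl, Ctss and Ctsz), whereas cathepsin D is an aspartic protease and cathepsin A a serine carboxypeptidase. Microglia are rich in them and use them to degrade phagocytosed material. Cathepsin S also trims the invariant chain from MHC class II in antigen-presenting cells, and cystatins hold the cysteine cathepsins in check.

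The libraries held between 9726334 and 15275199 counts, and 3 counts corresponded to 0.192 to 0.306 counts per 1000000 (CPM). Tnfaip3 stood at 454.1 and 94.75 CPM in control replicates 1 and 2 and at 294.6, 276.9 and 347.5 CPM in A20 deletion replicates 1 to 3 (log2 fold change 0.16, SE 0.55, edgeR adjusted p = 0.881). Which exons are removed is not given in the labels, so this does not check the deletion, and the groups are called by their labels. A20 deletion replicates 2 and 3 stood apart in structure. Genes longer than the median held 37.8% and 38.5% of the tested genes' counts there, against 44.9% in A20 deletion replicate 1 and 46.8% to 47.9% in the controls, and mitochondrial transcripts took 4.63% and 3.56% against 0.847% to 1.19% in the other libraries. Control replicate 1 and A20 deletion replicate 1 held Xist transcripts and the other libraries Y-linked ones, so both sexes were present in each group. Nothing in the labels ties libraries to separate animals, and p-values measure only how far these samples spread, part of which may be technical.

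Of the 9 cathepsin genes 3 rose in the A20 deletion libraries: Ctsz, Ctsh and Ctss. The level of Ctsz increased 1.97-fold, that of Ctsh 1.92-fold and that of Ctss 1.67-fold. The other 6 did not pass the threshold (edgeR's quasi-likelihood test, Benjamini-Hochberg adjusted p under 0.05 over all 12240 genes tested). Among all genes tested 2.08% were called higher and 0.507% lower. Calls in either direction made up 2.59%. None of the 9 was called lower by edgeR, DESeq2 or limma-voom, and none had a lower level at an unadjusted p under 0.05, while 7 had a higher one (12.8% of all genes tested). The log2 fold changes had a median of 0.45 over the 9 genes and 0.05 over all genes tested, and all 9 lay above 0 where 53.6% of all genes did. All 9 genes passed the filter on low counts. In 8 of the 9, all except Ctsf, every A20 deletion library lay above both controls, which held for 21.8% of all genes tested (40.2% had groups that did not overlap in either direction). In bulk RNA, more cathepsin transcript per cell and a larger share of cells rich in it cannot be told apart.

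**Figure D1:**
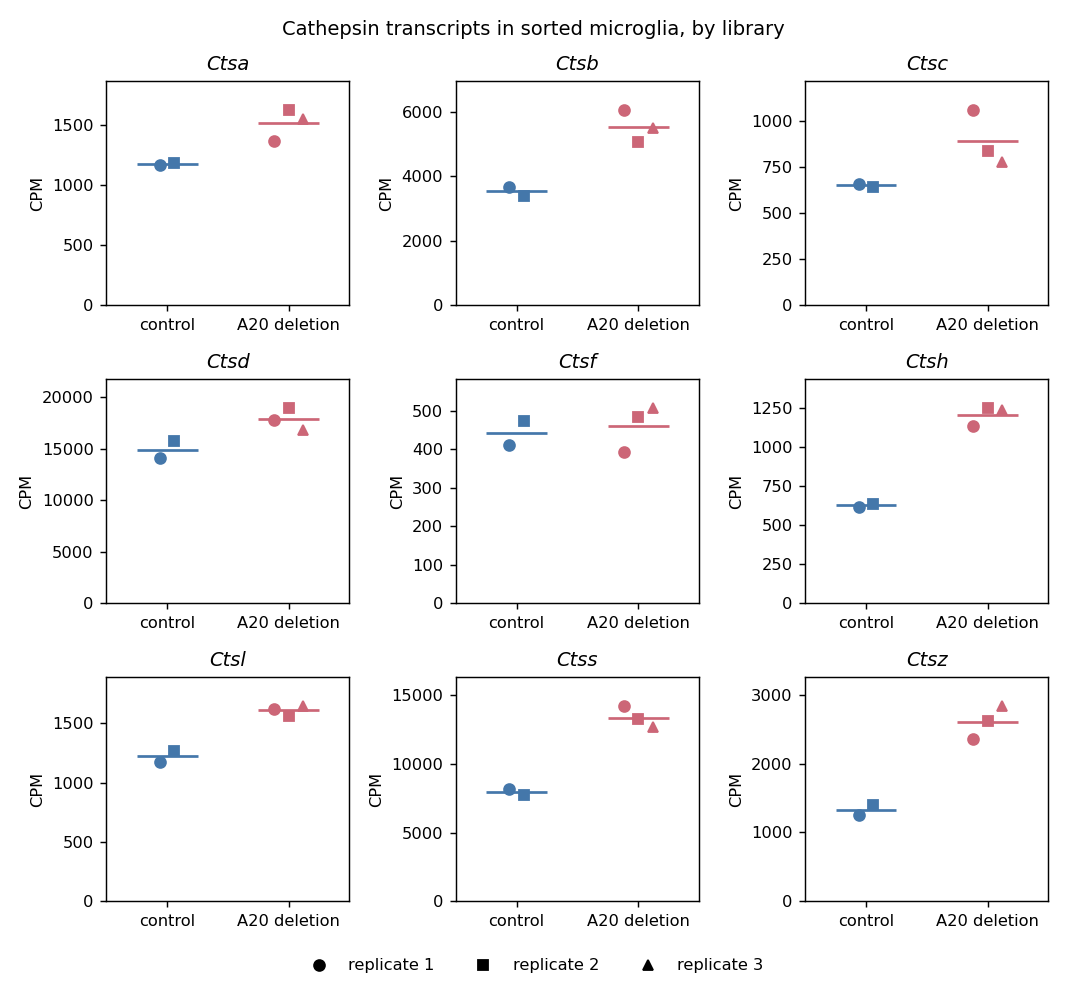
Level of each cathepsin gene in CPM (vertical axes start at 0) in the 2 control and 3 A20 deletion libraries; each symbol is a library and the line is the group mean. The groups are separate for Ctsz, Ctsh and Ctss and overlap for Ctsf.

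Ctsz encodes cathepsin Z (also called X), a cysteine carboxypeptidase that removes residues from the carboxyl end of proteins (ENSMUSG00000016256, GRCm38 chromosome 2, 174427493 to 174439039, minus strand). It was counted at 1248 and 1393 CPM in control replicates 1 and 2 and at 2360, 2619 and 2831 CPM in A20 deletion replicates 1 to 3. The lowest A20 deletion library stood well above the higher control. Controls averaged 1320.1 ± 103 CPM (SD, n = 2) and deletion libraries 2603 ± 236 CPM (SD, n = 3), a log2 fold change of 0.98 (SE 0.15, edgeR adjusted p = 0.0253).

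Ctsh encodes cathepsin H, which acts mainly as an aminopeptidase (ENSMUSG00000032359, chromosome 9, 90054152 to 90076089, plus strand). Its levels were 619.7 and 640.01 CPM in control libraries and 1135, 1250.2 and 1239.7 CPM in libraries with the deletion. The libraries within each group lay close together, and the groups were far apart. The means of 629.8 ± 14.4 CPM (SD, n = 2) and 1208 ± 63.7 CPM (SD, n = 3) gave a log2 fold change of 0.94 (SE 0.14, edgeR adjusted p = 0.0245).

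Ctss encodes cathepsin S, the endopeptidase of invariant chain processing, which unlike most cathepsins stays active at neutral pH (ENSMUSG00000038642, chromosome 3, 95526786 to 95556403, plus strand). Control replicates 1 and 2 held 8171 and 7753 CPM, and A20 deletion replicates 1 to 3 held 14168, 13205 and 12630.0 CPM. A20 deletion replicate 1 was the highest, whereas for Ctsz and Ctsh it was the lowest of the A20 deletion libraries. Control libraries averaged 7962 ± 296 CPM (SD, n = 2) and those with the deletion 13334 ± 777 CPM (SD, n = 3), with a log2 fold change of 0.74 (SE 0.12, edgeR adjusted p = 0.0267).

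Promoter sequence from RefSeq (GRCm38.p6) was found for 7 of the 9 genes, Ctsb and Ctsh being without an entry. The 250 bases before the RefSeq start site are printed on the gene's strand from 5′ to 3′. The 2 called genes with an entry are Ctss (chr3:95526536-95526785, plus strand) and Ctsz (chr2:174439040-174439289, minus strand). Ctsd (chr7:142387828-142388077, minus strand), the gene with the most counts, was added to set side by side the letters of called and uncalled genes. By GENCODE positions the Ctsd gene extends to base 142388038, so most of its printed bases lie inside the gene. The printed bases of Ctss and Ctsz lie just outside their genes. Capitals mark every match to the motifs described next.
Ctss: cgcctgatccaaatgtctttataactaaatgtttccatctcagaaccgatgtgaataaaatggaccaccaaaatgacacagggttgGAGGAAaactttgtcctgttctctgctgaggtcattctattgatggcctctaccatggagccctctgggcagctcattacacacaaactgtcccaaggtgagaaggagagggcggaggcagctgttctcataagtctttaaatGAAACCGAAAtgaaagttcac
Ctsz: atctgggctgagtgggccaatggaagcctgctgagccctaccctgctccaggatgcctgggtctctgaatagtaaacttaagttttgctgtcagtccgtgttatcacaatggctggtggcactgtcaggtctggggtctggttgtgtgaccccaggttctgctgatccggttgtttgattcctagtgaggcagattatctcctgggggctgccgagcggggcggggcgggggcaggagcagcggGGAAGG
Ctsd: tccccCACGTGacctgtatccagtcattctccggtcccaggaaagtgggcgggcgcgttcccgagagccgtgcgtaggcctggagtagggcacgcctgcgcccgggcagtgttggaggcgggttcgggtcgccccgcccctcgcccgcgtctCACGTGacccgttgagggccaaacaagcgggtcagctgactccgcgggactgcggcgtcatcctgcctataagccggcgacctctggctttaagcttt

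Motifs were searched on both strands in windows that also held the 50 bases after the start site, with overlapping matches kept. The core of the interferon-stimulated response element, GAAA and GAAA with any 2 bases between, occurred in Ctss alone of the 7 genes with an entry, as GAAACCGAAA beginning 21 bases before the start site, and in 3.44% of all 32851 promoter windows. The kappa-B consensus bound by NF-kB occurred in Ctsz alone, as GGAAGGCCCC, which begins 6 bases before the start site and runs past it, and in 8.46% of all windows. The E-box CACGTG, the core of the element bound by the lysosomal regulator Tfeb, occurred in 4 of the 7 and in 7.15% of all windows. The 4 were Ctsa (in the second of its 2 windows), Ctsd, Ctsf and Ctsl, with 2 matches each in Ctsa and Ctsd. By GENCODE positions, the bases before the start site lay wholly inside the gene for Ctsl and for that Ctsa window. For Ctsd and Ctsf they lay partly inside it. The longer palindrome of the E-box, CACGTG between GT and AC, was present in 0.326% of windows and holds the E-box within it. It occurred in 0 of the 7. GAGGAA, part of the element bound by the myeloid factor PU.1, occurred in Ctss and Ctsc and in 28.3% of windows. The gamma-activated site TTCNNNGAA occurred in Ctsc alone and in 8.3% of windows. A match describes the letters of a window and no binding was measured here.

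Ctsb encodes cathepsin B, an abundant endopeptidase and carboxydipeptidase (ENSMUSG00000021939, chromosome 14, 63122462 to 63145923, plus strand). Its levels were 3664 and 3404 CPM among controls and 6044, 5058 and 5502 CPM among deletion libraries. Every A20 deletion library exceeded both controls, but the gene stayed just outside the threshold (3534 ± 184 CPM, n = 2, against 5535 ± 494 CPM, n = 3, SD; log2 fold change 0.65, SE 0.14, edgeR adjusted p = 0.065). DESeq2 called it (log2 0.60, adjusted p = 0.0186), as part of 4 genes higher where DESeq2 called 5.25% of all genes higher. Of its exonic bases 774 also belong to Fdft1 on the opposite strand, and the strand setting of the counting is not given in the sources used here.

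Ctsc encodes dipeptidyl peptidase 1, which activates the serine proteases of leukocyte granules (ENSMUSG00000030560, chromosome 7, 88278085 to 88310888, plus strand). It stood at 660.7 and 645.8 CPM in control libraries and at 1059, 838.7 and 778.9 CPM after deletion. A20 deletion replicate 1 was the highest by a wide margin (log2 fold change 0.45, SE 0.18, edgeR adjusted p = 0.22). Of the 10 granule serine proteases listed as its targets none was tested because their counts were too low, and Gzma, Gzmb and Gzmk had no counts in the controls or in A20 deletion replicate 3 and at most 8 in A20 deletion replicates 1 and 2.

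Ctsl encodes cathepsin L, a broad endopeptidase (ENSMUSG00000021477, chromosome 13, 64359337 to 64370890, minus strand). Levels were 1178.5 and 1264 CPM among controls and 1625, 1565 and 1644 CPM in libraries with the deletion. The 3 A20 deletion libraries were tightly grouped above the controls, by a small margin (log2 fold change 0.40, SE 0.14, edgeR adjusted p = 0.178). Of its exonic bases 1742 also belong to the predicted gene Gm47123 on the opposite strand and 395 to Gm49230 on the same strand. Neither Gm47123 nor Gm49230 was among the genes counted.

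Ctsf, a cysteine cathepsin with an unusually long propeptide (ENSMUSG00000083282, chromosome 19, 4855130 to 4860918, plus strand), was the one gene whose groups overlapped. It stood at 410.1 and 472.3 CPM in control libraries and at 393, 482.6 and 506.2 CPM among deletion libraries. Its log2 fold change of 0.06 was smaller than its SE of 0.18 (edgeR adjusted p = 0.852).

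Ctsd encodes cathepsin D, the aspartic endopeptidase (ENSMUSG00000007891, chromosome 7, 142375911 to 142388038, minus strand), and took more counts than any other member. The controls held 14058 and 15751 CPM and the A20 deletion libraries 17754, 18919 and 16841 CPM. The groups did not overlap, yet the gap between the nearest libraries was narrower than the range within either group (log2 fold change 0.26, SE 0.12, edgeR adjusted p = 0.261). The predicted gene Gm49369, which was not among the genes counted, shares 808 of the exonic bases of Ctsd on the same strand.

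Cathepsin A, encoded by Ctsa, protects the lysosomal enzymes Glb1 and Neu1 in a shared complex (ENSMUSG00000017760, chromosome 2, 164832873 to 164841032, plus strand). It was at 1165 and 1184 CPM among controls and at 1368.5, 1623.5 and 1552 CPM after deletion, with replicate 1 nearest to the controls and no overlap (log2 fold change 0.37, SE 0.15, edgeR adjusted p = 0.22). Its exons share 495 bases with Pltp and 324 with Neurl2, both on the opposite strand. Its partners Glb1 and Neu1 did not pass either (log2 fold changes 0.30 and 0.45, edgeR adjusted p = 0.35 and 0.165).

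**Figure D2:**
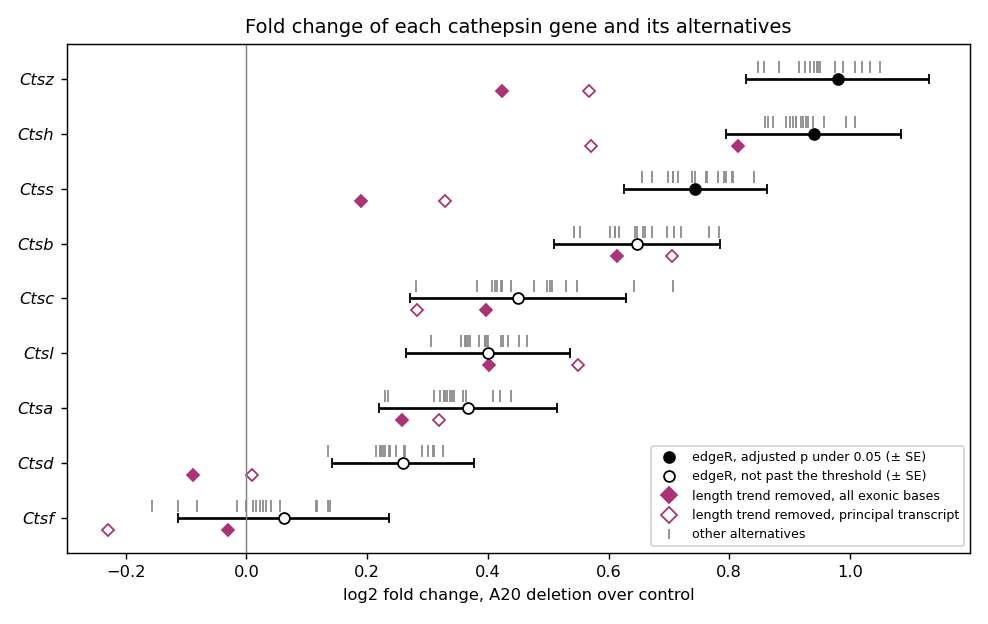
Log2 fold change of each cathepsin gene between A20 deletion and control; circles with SE bars are the edgeR values, filled where the adjusted p is under 0.05, diamonds are fits with each library's length trend removed, and grey ticks are the other alternatives. Ctsz, Ctsh and Ctss stand highest, and the diamonds of Ctsz and Ctss lie well to the left of their circles.

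Under the other scalings, filters and tools Ctsz, Ctsh and Ctss were called each time, and Ctsb was added in some. With DESeq2 size factors, library size alone, limma-voom or no filter on low counts 3 of the 9 were called, where 1.94%, 1.94%, 1.36% and 5.06% of all genes were called higher. With upper quartile scaling, a stricter filter, sex as a factor or the mitochondrial share as a covariate 4 were called, where 2.22%, 3.08%, 4.6% and 2.77% were. With the replicate number as a block none was called, where 1.86% were, and 5 had an unadjusted p under 0.05.

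Calls also depended on single libraries and on transcript length. Without control replicate 1, control replicate 2, A20 deletion replicate 2 or A20 deletion replicate 3, none of the 9 genes was called by edgeR (4 or 5 remained at an unadjusted p under 0.05), and 0.123%, 0%, 1.35% and 0.727% of all genes were called higher. Without A20 deletion replicate 1, 6 were called higher, where 15.7% of all genes were. Ctsz and Ctss have the shortest exonic length of the 9 (1441 and 1358 bases), and short genes held a larger share of counts in A20 deletion replicates 2 and 3. After removal of each library's trend with exonic length Ctss had a log2 fold change of 0.19 (edgeR adjusted p = 0.655), Ctsz of 0.42 (adjusted p = 0.21) and Ctsh of 0.81 (adjusted p = 0.049), and 1.33% of all genes were called higher (163 genes higher and 85 lower, against 255 and 62 without the correction). That correction moved the median over all genes tested, on the log2 scale, from 0.05 to -0.12. With the length of the principal transcript in place of all exonic bases, Ctsh fell short as well (0.57, adjusted p = 0.0996) and Ctsb was called (0.71, adjusted p = 0.0406), where 1.61% of all genes were called higher. In A20 deletion replicate 1 alone against both controls, where the long-gene share was near that of the controls, the log2 fold changes were 0.84 for Ctss (edgeR adjusted p = 0.00591), 0.85 for Ctsz (0.0317), 0.86 for Ctsh (0.0389) and 0.78 for Ctsb (0.0204), and 2.64% of all genes were called higher. With a single A20 deletion library, that fit takes its spread from the controls alone.

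Together the 9 genes took a larger part of the transcriptome in the A20 deletion libraries. They held 3.14% and 3.32% of all counts in control replicates 1 and 2 and 4.45%, 4.5% and 4.39% in A20 deletion replicates 1 to 3. The A20 deletion libraries lay close together on this measure. Most of these counts came from Ctsd and Ctss.

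Shares within the 9 genes do not depend on how libraries are scaled against each other. They do carry each library's trend with transcript length, which was not removed from them. Ctsd made up 45.1% and 48.5% of the cathepsin counts in the controls and 38.7%, 41.5% and 38.7% in the A20 deletion libraries. The share of Ctss was 26.2% and 23.9% in the controls and higher, at 30.9%, 29% and 29%, in the libraries with the deletion. The Ctsd count was 1.72 and 2.03 times the Ctss count in the controls and 1.25, 1.43 and 1.33 times in the A20 deletion libraries. Against Ctsz the Ctsd count was 11.3 times as large in both controls and 7.52, 7.22 and 5.95 times in the A20 deletion libraries. The ratio of Ctsh to Ctsz counts, by contrast, overlapped between groups, at 0.497 and 0.46 in the controls and 0.481, 0.477 and 0.438 in the A20 deletion libraries. With 2 against 3 libraries these ratios are given as descriptions with no test.

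**Figure D3:**
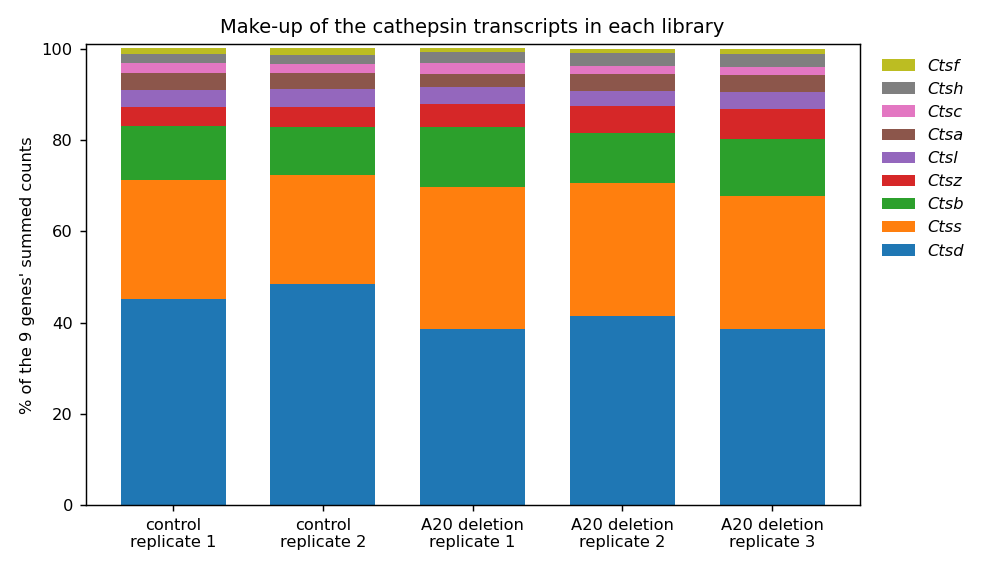
Share of the summed counts of the 9 cathepsin genes taken by each gene, in percent, 1 bar per library. Ctsd takes 45.1% and 48.5% in the controls and between 38.7% and 41.5% in the A20 deletion libraries.

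Per kilobase of principal transcript, Ctsd and Ctss were far above the other cathepsins, and their order differed between groups. In the controls Ctsd stood at 6609 and 7405 CPM per kilobase of transcript (RPKM) and Ctss at 6030.5 and 5722 RPKM. In the A20 deletion libraries Ctss stood at 10456, 9746 and 9321 RPKM, above Ctsd at 8347, 8895 and 7918 RPKM in each. Ctsz (mean level 916 ± 71.2 RPKM in controls, n = 2, and 1807 ± 164 RPKM in A20 deletion, n = 3, SD) and Ctsb (745 ± 38.7 and 1167 ± 104 RPKM) followed. These ranks were the same with all exonic bases as the length. Division by 1 length per gene does not remove each library's trend with length, and Ctss is shorter than Ctsd (1355 and 2127 bases). With that trend removed by principal transcript length, log2 fold changes were 0.33 for Ctss and 0.01 for Ctsd, against 0.74 and 0.26 without. By exonic length they were 0.19 and -0.09. Whether the order of Ctsd and Ctss still differed after that removal was not tested.

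Below them came Ctsh (mean level 389.5 ± 8.9 RPKM in controls and 747 ± 39.4 RPKM in A20 deletion), Ctsa (322 ± 3.77 and 415 ± 36.1 RPKM), Ctsc (262 ± 4.23 and 358 ± 59.3 RPKM), Ctsf (223 ± 22.2 and 233 ± 30.2 RPKM) and Ctsl (198 ± 9.81 and 261 ± 6.66 RPKM). Neighbouring levels in this lower range were not all separable. Ctsa overlapped Ctsc, and Ctsf overlapped Ctsl, in the A20 deletion libraries. The order of these 5 genes changed when all exonic bases were used as the length, because Ctsc, Ctsf and Ctsh have exonic annotation much longer than their principal transcript.

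**Figure D4:**
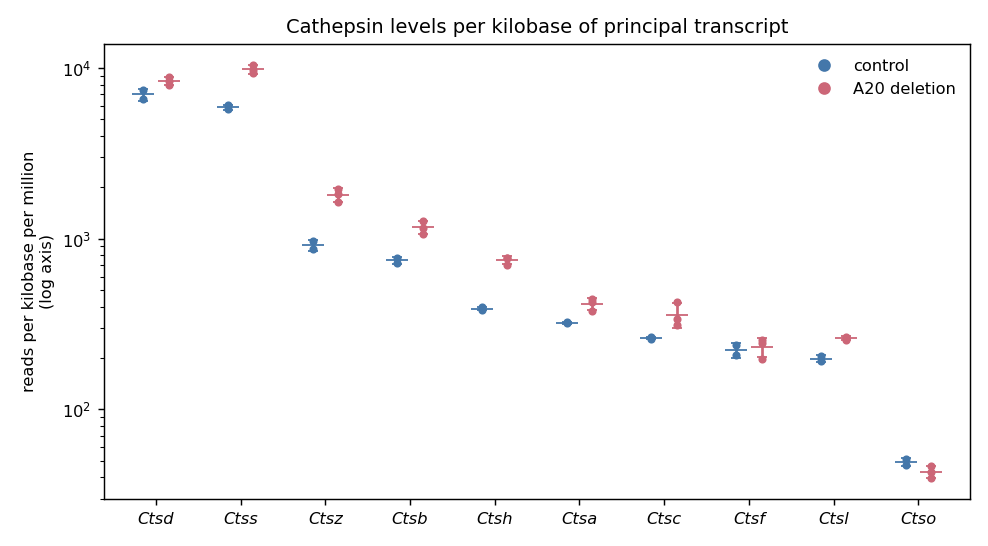
Level of the 9 cathepsin genes and Ctso in RPKM over the principal transcript (log axis), ordered by the control mean; points are libraries, dashes are means and bars are SD. Ctsd is above Ctss in the controls and below it in the A20 deletion libraries. Each library's trend with length is not removed.

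The remaining cathepsins were scarce in these cells. Of 13 further family members 8 had no count in any library, among them Ctsg of neutrophil granules. Ctso, a widely expressed cysteine cathepsin, was the most abundant, at 163.4 and 177.8 CPM in control libraries and 161.8, 149.8 and 136.9 CPM in libraries with the deletion. It had a log2 fold change of -0.19 (SE 0.16, edgeR adjusted p = 0.493), and its direction was opposite to that of the 9 genes. Ctse, an aspartic cathepsin, stayed between 1.49 and 3.9 CPM, and Ctsw, a cathepsin of cytotoxic lymphocytes, between 0.102 and 1.26 CPM. Ctsk, the cathepsin of osteoclasts, had 1 count in the controls together and at most 9 in an A20 deletion library. Of the 3 tested, none was called by edgeR, DESeq2 or limma-voom or had an unadjusted p under 0.05.

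The inhibitors of cathepsins were dominated by cystatin C, encoded by Cst3, and the member that rose was Cst7. Cystatin F, encoded by Cst7, is a lysosomal inhibitor directed at cathepsin C among others. It was at 8.394 and 7.698 CPM among controls and at 38.99, 21.46 and 31.07 CPM among deletion libraries, 3.79-fold higher (log2 fold change 1.92, SE 0.29, edgeR adjusted p = 0.0238). The secreted Cst3 stood at 19366 and 20189 CPM in control libraries and at 13954, 23052 and 16561 CPM after deletion, with overlapping groups (log2 -0.15, adjusted p = 0.686). The cytosolic Cstb was at 21.98 and 28.42 CPM and at 42.71, 47.25 and 51.34 CPM, short of the threshold (adjusted p = 0.065). Of 30 inhibitors listed 28 were in the table and 11 were tested, with 12 members at 0 in every library. Of the 11 tested 1 was called higher, against 2.08% of all genes tested. At an unadjusted p under 0.05 in edgeR 2 were higher, against 12.8%. The median log2 fold change of 0.81 was the value of the scarce Serpinb6b (SE 0.77, edgeR adjusted p = 0.55, at most 1.53 CPM). Ctla2a, also tested, was at most 1.42 CPM. Serpinb9, an inhibitor of serine proteases, was among the most abundant and had a log2 fold change of 0.10 (adjusted p = 0.77).

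Class II antigen processing, in which cathepsin S takes part, had 3 of 10 genes called higher, against 2.08% of all genes tested. The median log2 fold change was 1.09, against 0.05 over all genes tested. The invariant chain Cd74, the substrate of cathepsin S, was at 58.76 and 74.8 CPM among controls and at 224.05, 173.3 and 203 CPM in libraries with the deletion (log2 fold change 1.58, SE 0.20, edgeR adjusted p = 0.0134). H2-Ab1, a class II beta chain, rose 3.33-fold and Ifi30, the lysosomal thiol reductase, 2.39-fold (edgeR adjusted p = 0.0104 and 0.0141). The peptide-loading genes H2-DMa and H2-DMb1 had log2 fold changes of 0.35 and 0.34, not past the threshold (adjusted p = 0.293 and 0.326).

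The machinery that delivers and matures cathepsins differed less. Of 25 genes for delivery, processing and partner proteins 1 rose, the sterol carrier Npc2 (690.2 and 675.4 CPM in the controls, 1264.5, 1233 and 1292 CPM among deletion libraries, log2 fold change 0.89, SE 0.14, edgeR adjusted p = 0.0261), and the list median was 0.17. Legumain, encoded by Lgmn, which cleaves cathepsin precursors, was at 6823 and 7273.5 CPM in control libraries and 7473, 8784 and 8268 CPM after deletion (adjusted p = 0.36). Psap, the precursor of the saposins, was at 6399 and 5857 CPM among controls and 10099, 7252 and 7902.5 CPM after deletion (log2 0.46, adjusted p = 0.199). The mannose 6-phosphate receptor M6pr had a log2 fold change of 0.12 (adjusted p = 0.681). The other mannose 6-phosphate receptor, Igf2r, was scarce, at 0.854 and 1.73 CPM among controls and 9.44, 3.85 and 7.74 CPM after deletion, without overlap and short of the threshold (log2 2.42, unadjusted p = 0.00297, edgeR adjusted p = 0.0769). Sort1, a sorting receptor of the Golgi, was at 602.7 and 717.7 CPM among controls and at 473.8, 276.1 and 273.6 CPM in libraries with the deletion and did not pass (log2 -0.95, adjusted p = 0.126). The proton pump that acidifies the lysosome had 0 of 16 tested subunits called by edgeR, DESeq2 or limma-voom and a median log2 fold change of 0.12. In edgeR 4 subunits were higher and 1 lower at an unadjusted p under 0.05, where 12.8% of all genes tested were higher. The listed members with the highest mean CPM over the 5 libraries, Atp6ap1, Tcirg1 and Atp6ap2, had log2 fold changes of 0.00, 0.44 and 0.08 (adjusted p = 0.995, 0.19 and 0.778). The subunit lower at an unadjusted p under 0.05 was Atp6v0a1 (log2 -0.39, unadjusted p = 0.0313).

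Among the transcription factors listed for lysosomal genes and microglial activation, Relb, a member of the NF-kB family, rose 2.39-fold (log2 1.26, SE 0.19, edgeR adjusted p = 0.0215). The lysosomal regulators Tfeb, Tfe3 and Mitf had log2 fold changes of 0.09, -0.12 and 0.04, none past the threshold (adjusted p = 0.746, 0.673 and 0.899). Irf8 and Spi1, which set microglial identity, and Nfkb1 were the most abundant and had log2 fold changes of -0.01, 0.07 and -0.15 (adjusted p = 0.988, 0.819 and 0.71). The 6 partner genes named here as risen (Cst7, Cd74, H2-Ab1, Ifi30, Npc2 and Relb) were not called without control replicate 1 or without control replicate 2. Cst7, Cd74, Ifi30, Npc2 and Relb were not called without A20 deletion replicate 3, nor Npc2 without A20 deletion replicate 2 or with the replicate number as a block (log2 0.87, edgeR adjusted p = 0.095). After removal of the trend with exonic length Cst7, Cd74 and Ifi30 were not called (adjusted p = 0.17, 0.0888 and 0.248), and with principal transcript lengths Cst7, Cd74 and H2-Ab1 were not (0.112, 0.0534 and 0.065).

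**Figure D5:**
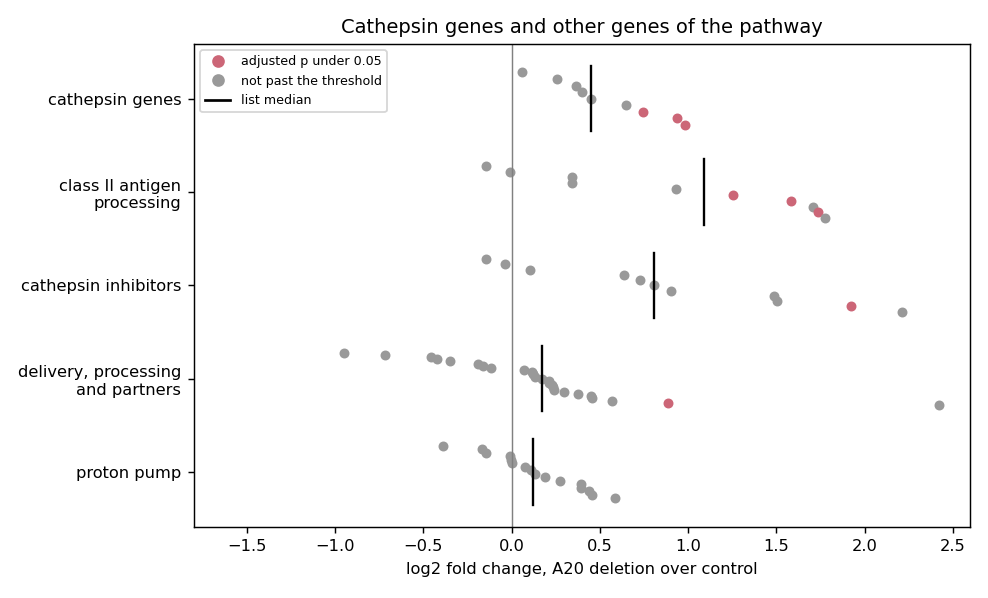
Log2 fold change of the tested genes of 5 lists (points, coloured where the edgeR adjusted p is under 0.05) with the list median as a vertical line. The medians are 0.45 for the cathepsin genes, 1.09 for class II antigen processing and 0.12 for the proton pump.

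Other cells also carry cathepsins, and their markers were measured beside the members. The summed level of 10 microglial markers was 53174 and 58593 CPM in control libraries and 41965, 42792 and 38066 CPM among deletion libraries, so the defining markers of the labelled cells were abundant, and Fcrls was called lower (log2 -1.25, edgeR adjusted p = 0.0217). Of these 10 markers 7 were lower at an unadjusted p under 0.05 in edgeR, and DESeq2 called 5 lower. Of all 12240 genes tested by edgeR 2575 had such a p in either direction, 1564 of them higher. DESeq2 called 342 of 12712 genes lower. The groups of 9 markers did not overlap, against 40.2% of all genes tested in either direction. The median log2 fold change was -0.47 over the markers and 0.05 over all genes tested. Siglech went the other way (log2 0.415, edgeR adjusted p = 0.35). The 9 monocyte markers summed to 24.4 and 20.14 CPM among controls and 122.4, 79.79 and 82.3 CPM after deletion. Of 7 tested Plac8 and Ms4a4c were called higher, against 2.08% of all genes tested. At an unadjusted p under 0.05 in edgeR 5 were higher, against 12.8%. Ccr2 was at most 8.14 CPM in libraries with the deletion and 11.5 and 8.21 CPM in the controls. The 6 markers of border-associated macrophages summed to 58.26 and 128.4 CPM and to 101.4, 77.98 and 91.17 CPM, with none called of 6 (0 at an unadjusted p under 0.05, and 0 by DESeq2 and limma-voom). The 8 neutrophil markers summed to 18.9 and 0.449 CPM in control libraries and to between 1.49 and 9.53 CPM among deletion libraries. The 10 T and NK cell markers summed to 0.925 and 1.41 CPM among controls and to 8.23, 5.27 and 4.07 CPM after deletion. The 6 dendritic cell markers summed to 6.62 and 7.18 CPM among controls and to 12.04, 14.9 and 14.7 CPM after deletion, with Cd209a at 0 in every library. The groups did not overlap in the 4 tested, against 40.2% of all genes tested in either direction. The 5 B cell markers were at 274.7 to 341.1 CPM among controls and 385.8 to 423.8 CPM after deletion, mostly Ighm. The 4 astrocyte markers, of which Aldh1l1 was called higher (edgeR adjusted p = 0.0343), summed to 144.5 and 148.4 CPM in A20 deletion replicates 2 and 3 and to between 44.6 and 81.02 CPM in the other libraries. The 4 oligodendrocyte markers summed to 207.2 and 200.8 CPM there and to between 73.3 and 100.3 CPM elsewhere. The 4 neuronal markers summed to at most 7.94 CPM in any library. The 4 endothelial markers summed to between 56.5 and 111 CPM, highest in A20 deletion replicate 1, but differed in direction. Pecam1 was lower (log2 -0.80, edgeR adjusted p = 0.0797). Cldn5, Flt1 and Kdr were higher (log2 3.23, 1.98 and 1.25, edgeR adjusted p = 0.178, 0.181 and 0.241). None of the 4 was called by edgeR, and the groups overlapped in none of them (40.2% of all genes tested did not overlap in either direction). The part of these other cells in the cathepsin levels was not tested.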

How the data were processed

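RNA of sorted microglia was sequenced in 5 libraries. The authors deposited a table of raw, whole-number counts per gene. Their tools, per the submitters' processing notes, were STAR 2.4.0j, DESeq2 1.22.1 and featureCounts, with build GRCm38. Annotation release, strand setting, featureCounts version and treatment of multiply mapped reads: not given in the sources used here. Symbols, positions and lengths came from GENCODE M21 (40254 of 41388 identifiers matched).

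Counts were fitted in R 4.3.3 with edgeR 4.0.16 (filterByExpr, minimum count 10 and minimum total 15, TMM scaling, quasi-likelihood test, two-sided, no covariate), A20 deletion against control. Benjamini-Hochberg adjustment ran over all 12240 genes tested, with a threshold of 0.05. The SE is the log2 fold change over the square root of F and is approximate. CPM use the TMM-scaled library total. RPKM divide CPM by the length of the APPRIS principal transcript. DESeq2 1.42.0 and limma 3.58.1 served as alternatives. Every library pair differed by more than sampling noise.

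The 9 genes, the other lists, the markers and the naming rule were chosen with earlier results of these data known. All 9 genes are named, and of the other lists those past the threshold and abundant ones; H2-DMb1, M6pr, Igf2r, Atp6v0a1, Sort1, Glb1, Neu1, Tfeb, Tfe3, Mitf, Ctsg, Ctsk, Ccr2, Ighm and the granzymes were added after their values were seen. A few genes under that rule are left unreported here. Genes most like a member were those with the smallest Euclidean distance of log2 CPM, centred over the 5 libraries, for the members with the largest, next largest and lowest log2 fold change. The removal of both A20 deletion replicates 2 and 3 and the use of principal transcript lengths were added after the data were seen.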

Additional observations from a re-analysis of the deposited data

How the results depend on the processing

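Log2 fold changes of Ctsz, Ctsh, Ctss, Ctsb, Ctsc, Ctsl and Ctsa kept their direction in all 18 alternatives. Ctsd turned to -0.0877 with the trend of exonic length removed. Ctsf, which was never called, was -0.0152 with the replicate block, -0.11 with the mitochondrial share as a covariate, -0.0307 and -0.23 with the length trend removed (exonic bases and principal transcript), -0.16 without A20 deletion replicates 2 and 3 together, and between -0.0811 and 0.14 when single libraries were omitted.

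The number of cathepsin genes called was 3, but 1 with either length correction, 0 with the replicate block and between 0 and 6 when single libraries were omitted. The cause of these shifts was not tested. Genes called in all numbered 317, but 1701 without a filter, 1010 with DESeq2, 211 with limma-voom, 824 with sex as a factor and between 0 and 3923 when single libraries were omitted (without control replicate 2 none passed in edgeR, and 1323 had an unadjusted p under 0.05). The inhibitor, delivery and class II genes called numbered 5, but 13 without a filter, 8 with the stricter filter, 12 with DESeq2, 11 with sex as a factor, 9 with the mitochondrial share, 10 without A20 deletion replicates 2 and 3 together, 2 with either length correction and between 0 and 21 when single libraries were omitted.

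The titles give both groups replicates 1 and 2 but do not say that a number marks a shared litter or day. Deviations from the group means correlated across genes at 0.26 between the libraries numbered 1 and at 0.17 between those numbered 2. Control replicate 2 and A20 deletion replicate 3 also correlated, at 0.22. With 2 controls their deviations are mirror images, so these values are not separate observations and cannot decide whether libraries were paired. The libraries in each positive pair also shared sex-linked transcripts, Xist in those numbered 1 and Y-linked ones in the others. With the replicate number as a block 260 genes passed, and Ctsz, Ctsh and Ctss had edgeR adjusted p of 0.0693, 0.0814 and 0.0626. The replicates give little precision with 2 against 3 libraries, and A20 deletion replicate 3 has no partner.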

Other observations

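Over the 5 libraries, the genes whose centred log2 CPM lay nearest to that of Ctsz, of 4811 compared, were Cd63, a tetraspanin of late endosomes, at a distance of 0.0841, then the nucleolar gene Npm1 and the ribosomal protein gene Rpl36al. Those nearest to Ctsh were Psme2, a proteasome activator subunit, at 0.0906, then Tank, an adaptor of TRAF signalling, and Cd63. Cd63 was thus near both. Those nearest to Ctsf were Abhd16a, Dnajb11 and Orai2, with distances between 0.0456 and 0.0586 and log2 fold changes between 0.05 and 0.09. The distance is the square root of the summed squared differences in log2 units, with no test attached.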
